A study of Mus musculus with 12 samples.

Results

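The genes of MHC class I presentation and of the immunoproteasome were examined in skin of C3H/HeJ mice with alopecia areata treated with topical baricitinib. The group was set by gene name: B2m, H2-K1, H2-D1, Tap1, Tap2, Tapbp, Psmb8, Psmb9, Psmb10 and Nlrc5. These are 10 of the 18193 genes that had a probe set annotated with a single symbol on the Affymetrix Mouse Genome 430 2.0 array, and they were read by 27 of the 45037 probe sets tested. There were 9 probe sets for H2-D1, 4 each for H2-K1 and Tap1, 2 each for B2m, Tapbp and Psmb8, and 1 each for Tap2, Psmb9, Psmb10 and Nlrc5. A further 3 probe sets shared by H2-K1 or H2-D1 with other symbols were left out.

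All mice were C3H/HeJ recipients of skin grafts from alopecic mice of the same strain, a model in which the graft brings on hair loss that was left to become established before treatment. Baricitinib, an inhibitor of the Janus kinases JAK1 and JAK2, was applied to 3 mice and vehicle to 3 mice. Skin was taken from each of the 6 mice at week 0 and at week 12, so that 12 arrays fell into 4 groups of 3: vehicle week 0, vehicle week 12, baricitinib week 0 and baricitinib week 12. Ages at sampling are not given in the sources used here. Whole skin biopsies were used, so fewer cells of a type and less RNA per cell cannot be told apart.

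MHC class I molecules carry peptides from inside the cell to its surface, where CD8 T cells read them. The proteasome cuts proteins into peptides, the TAP transporter moves the peptides into the endoplasmic reticulum, and tapasin helps to load them onto a heavy chain paired with beta-2 microglobulin. Interferon-gamma, which signals through JAK1 and JAK2, is a textbook inducer of this machinery, including the 3 subunits that turn the standard proteasome into the immunoproteasome. Hair follicles normally hold little surface MHC class I, and loss of this immune privilege is a known feature of alopecia areata. The comparisons ask whether the RNA of this machinery fell with the drug. Protein was not measured on these arrays.

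None of the 27 probe sets passed the test in any of the 5 comparisons made. Values are log2 RMA values and a call is an adjusted p under 0.05 in limma, adjusted over all probe sets tested. Between week 0 and week 12 of baricitinib 0 of 27 were called, beside 1.24% of all probe sets. Between baricitinib and vehicle at week 12 it was 0 of 27, beside 0.58%. Over 12 weeks of vehicle, between the treatment groups at week 0, and for the change with baricitinib minus the change with vehicle, it was again 0 of 27, where 0% of all probe sets were called. At an unadjusted p under 0.05 the 5 counts, in the order week 12 against week 0 of baricitinib, the same with vehicle, baricitinib against vehicle at week 12, the same at week 0, and the difference of the changes, were 0, 0, 2, 0 and 1 of 27. The shares of all probe sets below that limit were 12.3%, 2.46%, 10.9%, 1.13% and 6.27%. Within baricitinib mice 5532 of 45037 probe sets reached that limit and no member did. With 1 probe set per gene, that of the highest mean, it was 0 of 10 members. Of all 18193 genes taken in that way, 1572 were lower and 1225 higher at that limit. Whether the members differ from that share was not tested.

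The direction with baricitinib was mostly downward and small. Of the 27 probe sets, 25 had a difference below 0 between week 12 and week 0, with a median of -0.25 on the log2 scale. With each array left out in turn, that count ran from 19 to 26. The median of all probe sets was 0.003, and 49.7% of them were below 0. With vehicle 18 of 27 were below 0, with a median of -0.03. Between baricitinib and vehicle at week 12, 16 of 27 were below 0, with a median of -0.02. With 1 leading probe set per gene, the one with the highest mean over the 12 arrays, 9 of 10 were below 0 with baricitinib and 9 of 10 with vehicle, with medians of -0.29 and -0.23. For the difference of the changes 5 of 10 were below 0, with a median of -0.0013. Probe sets of one gene share its transcript, and those of the heavy chains share sequence, so these counts are not counts of independent measurements.

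**Figure D1:**
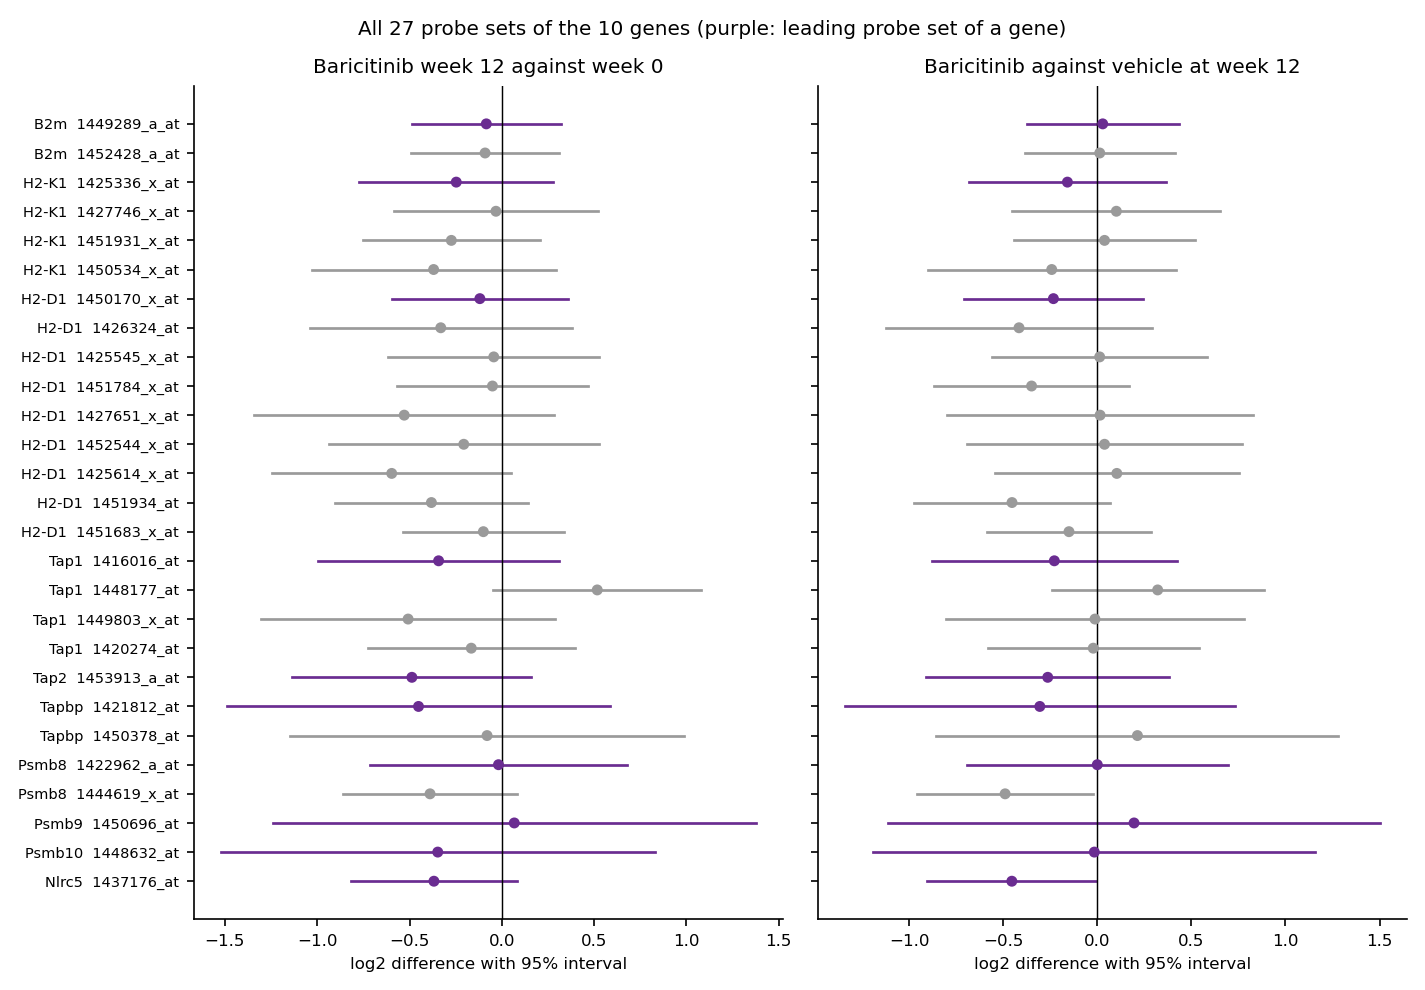
Difference in log2 RMA value (x axis) for each of the 27 probe sets (y axis, gene and probe set), with its 95% interval from limma; left, baricitinib week 12 minus week 0, and right, baricitinib minus vehicle at week 12. The points on the left lie between -0.60 and 0.52, and 25 of 27 lie below 0, while all intervals on the left and all but 2 on the right cross 0.

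Some arrays stood apart. The 3′ minus 5′ index is the mean log2 difference between the 3′ and 5′ control probe sets of Actb and Gapdh. This index is higher where the 5′ end of these transcripts gave less signal, and it cannot tell short labelled cDNA from degraded RNA. It lay between 1.23 and 1.31 on 3 arrays, replicates 2 and 3 of baricitinib week 12 and replicate 1 of vehicle week 0, and between 2.55 and 4.10 on the other 9. The 2 arrays with the lowest mean correlation with the others were replicate 2 of baricitinib week 0 (0.941) and replicate 1 of baricitinib week 12 (0.946). Values without them are given for several members, below or in the closing section.

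B2m encodes beta-2 microglobulin, the light chain shared by all class I molecules, and it was the steadiest member. Its leading probe set read 13.13, 13.38 and 13.41 at vehicle week 0 and 13.22, 13.24 and 13.37 at vehicle week 12. At baricitinib week 0 it read 13.32, 13.51 and 13.33, and at baricitinib week 12 it read 13.33, 13.29 and 13.30. The groups overlapped, and the SD over all 12 arrays was 0.0973. The change with baricitinib was -0.08 (SE 0.18, adjusted p = 0.914). Its 95% interval, not corrected for the number of probe sets, ran from 1.40-fold lower to 1.25-fold higher. The second B2m probe set changed by -0.09, lower in 3 of 3 mice and without overlap between weeks, while the difference from vehicle at week 12 was 0.01.

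H2-K1 and H2-D1 encode the classical class I heavy chains, which hold the peptide. The leading H2-K1 probe set (1425336_x_at) read 11.18, 10.83 and 10.57 at vehicle week 0, and 10.74, 10.56 and 10.39 at vehicle week 12. It read 10.48, 10.81 and 10.65 at baricitinib week 0, and 10.06, 10.51 and 10.64 at baricitinib week 12. All 6 mice were lower at week 12, and all 4 groups overlapped. The mean change was -0.25 (SE 0.24, adjusted p = 0.763) with baricitinib and -0.30 (SE 0.24, adjusted p = 1.00) with vehicle. The decrease with baricitinib was no larger than the one with vehicle, and the difference of the changes was 0.05 (95% interval -0.69 to 0.79). Without the 2 arrays of lowest correlation, the value for baricitinib was 0.01.

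The leading H2-D1 probe set (1450170_x_at) read 11.65, 11.92 and 11.53 at vehicle week 0, and 11.84, 11.79 and 11.54 at vehicle week 12. It read 11.77, 11.32 and 11.74 at baricitinib week 0, and 11.32, 11.64 and 11.51 at baricitinib week 12. No group separated from another. The change with baricitinib was -0.12 (SE 0.22, adjusted p = 0.894), and the difference from vehicle at week 12 was -0.23 (SE 0.22, adjusted p = 0.815). The 13 heavy chain probe sets all had a difference below 0 with baricitinib, from -0.60 to -0.03, and 7 of 13 did with vehicle. Between baricitinib and vehicle at week 12, 7 of 13 were below 0. Some means came mostly from 1 mouse, as for 1426324_at, which changed by -1.21, 0.19 and 0.02 in the 3 baricitinib mice. Most carry the suffix that marks probes shared with related sequences, so signal from one class I gene cannot be told apart from that of another. The probe sets of H2-D1 did not move as one: 1425614_x_at was lower in 3 of 3 baricitinib mice (-0.60, adjusted p = 0.462), while 1425545_x_at was lower in 1 of 3 (-0.04). The changes of 1425614_x_at in the 3 mice were -0.24, -1.34 and -0.20, so that most of its mean came from replicate 2, whose week 0 array (6.77) was one of the 2 of lowest correlation.

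The RefSeq promoter windows of these 3 genes are shown because they hold the elements through which class I genes are known to be controlled together. All sequences printed here are those of the reference genome and were not read in the C3H/HeJ mice studied. How well the array probes match the heavy chain genes of this strain was not examined either. Each window runs from 250 bases before to 50 bases after an annotated transcript start (GRCm38.p6), and windows were found for 8 of the 10 genes, all but Tap2 and Nlrc5. The letters TGACG (core of the X2 box) and ATTGG (the Y box, CCAAT on the other strand) followed each other in B2m, H2-K1 and H2-D1 at the same spacing of 25 bases from start to start. The stretches below are written 5′ to 3′ on the strand of the gene and aligned on TGACG. Capitals mark TGACG and ATTGG and, in B2m alone, a match to GAAANNGAA, one spelling of the core of the interferon-stimulated response element.
B2m: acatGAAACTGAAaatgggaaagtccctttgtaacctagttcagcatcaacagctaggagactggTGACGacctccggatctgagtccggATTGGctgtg
H2-K1: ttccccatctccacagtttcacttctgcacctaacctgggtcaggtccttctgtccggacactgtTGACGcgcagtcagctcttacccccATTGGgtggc
H2-D1: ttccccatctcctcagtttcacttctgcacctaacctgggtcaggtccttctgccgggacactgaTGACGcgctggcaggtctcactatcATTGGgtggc

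The B2m stretch lies at chr2:122147544-122147643 on the plus strand, that of H2-K1 at chr17:34000354-34000453 on the minus strand, and that of H2-D1 at chr17:35262928-35263027 on the plus strand. TGACG began 78 bases before the start in B2m, 41 before a start of H2-K1 and 101 before that of H2-D1. Of all 32851 promoter windows of this length, 20.8% held TGACG on either strand, 37.4% held CCAAT on either strand and 0.0578% held TGACG followed by ATTGG at this spacing. The spacing was chosen after these sequences had been seen, so the 3 matches are a description. GAAANNGAA was found in 8.56% of all windows and, of the 8 genes matched, in B2m only. A match in letters is not a binding site, and the lack of a match does not show that an element is absent.

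Nlrc5 encodes the class I transactivator, a coactivator known to act at that X and Y box module. Its probe set read 12.07, 12.55 and 12.47 at vehicle week 0 and 12.39, 12.34 and 12.32 at vehicle week 12. It read 12.36, 12.07 and 12.35 at baricitinib week 0 and 11.84, 12.04 and 11.80 at baricitinib week 12. The 3 arrays of baricitinib week 12 were thus below all other 9 arrays, the closest values being 12.04 and 12.07. Replicates 2 and 3 of baricitinib week 12 (12.04 and 11.80) had a low 3′ minus 5′ index, as had replicate 1 of vehicle week 0 (12.07). Replicate 2 of baricitinib week 0 (12.07) was one of the 2 arrays of lowest correlation. The change with baricitinib was -0.37 (SE 0.21, adjusted p = 0.532), lower in 3 of 3 mice, and the difference from vehicle at week 12 was -0.46 (SE 0.21, adjusted p = 0.449). With vehicle the change was -0.01 (SE 0.21). The difference of the changes was -0.35 (95% interval -0.99 to 0.28), which did not pass the test.

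Only 1 other member probe set had baricitinib week 12 below all other arrays, that of Tap2. With Nlrc5 this made 2 of 27, beside 3.07% of all probe sets. Without overlap between weeks in baricitinib mice, 4 of 27 were lower, those of Tap2 and Nlrc5 and the second probe sets of B2m and Psmb8, beside 7.91% of all. Without overlap with vehicle at week 12, 5 of 27 were lower, 2 of them H2-D1 probe sets and the others those of Tap2, Nlrc5 and the second Psmb8 probe set, beside 9.69% of all.

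Tap1 and Tap2 encode the chains that pair to form the peptide transporter. The Tap2 probe set read 10.15, 9.36 and 8.95 at vehicle week 0 and 9.22, 8.80 and 8.78 at vehicle week 12. It read 8.86, 9.38 and 9.23 at baricitinib week 0 and 8.64, 8.70 and 8.66 at baricitinib week 12. All 6 mice were lower at week 12, by a mean of -0.49 (SE 0.30, adjusted p = 0.578) with baricitinib and -0.56 (SE 0.30, adjusted p = 1.00) with vehicle. The group means ran from 9.49 at vehicle week 0 through 9.15 at baricitinib week 0 and 8.93 at vehicle week 12 to 8.67 at baricitinib week 12. Of the neighbours in that order, the treatment groups did not pass the test at week 0 or at week 12, and baricitinib week 0 was not tested against vehicle week 12. The 3 arrays of the last group were below all other arrays.

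Tap1 read 10.85, 10.39 and 9.89 at vehicle week 0 and 10.33, 10.08 and 10.04 at vehicle week 12 on its leading probe set. It read 10.22, 10.19 and 10.37 at baricitinib week 0 and 9.36, 10.099 and 10.30 at baricitinib week 12. Replicate 1 of baricitinib week 12 was the lowest array and replicate 1 of vehicle week 0 the highest. The change was -0.34 (SE 0.30, adjusted p = 0.729) with baricitinib, lower in 3 of 3 mice, and -0.23 (SE 0.30) with vehicle. Without replicate 1 of baricitinib week 12 the change with baricitinib was -0.06. The other 3 Tap1 probe sets were below the median level of all probe sets, 5.24, and one of them, 1448177_at, ran the other way (0.52, adjusted p = 0.464).

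Tapbp encodes tapasin, which links the transporter to the empty heavy chain. It read 12.62, 12.17 and 11.39 at vehicle week 0 and 12.34, 12.26 and 11.34 at vehicle week 12. It read 12.29, 11.39 and 12.69 at baricitinib week 0 and 10.81, 12.12 and 12.08 at baricitinib week 12. Within each group the arrays differed by more than the group means did. The change with baricitinib was -0.45 (SE 0.47, adjusted p = 0.784), and its interval ran from 2.81-fold lower to 1.501-fold higher. Without replicate 1 of baricitinib week 12 it was -0.02, and without replicate 2 of baricitinib week 0 it was -0.82.

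**Figure D2:**
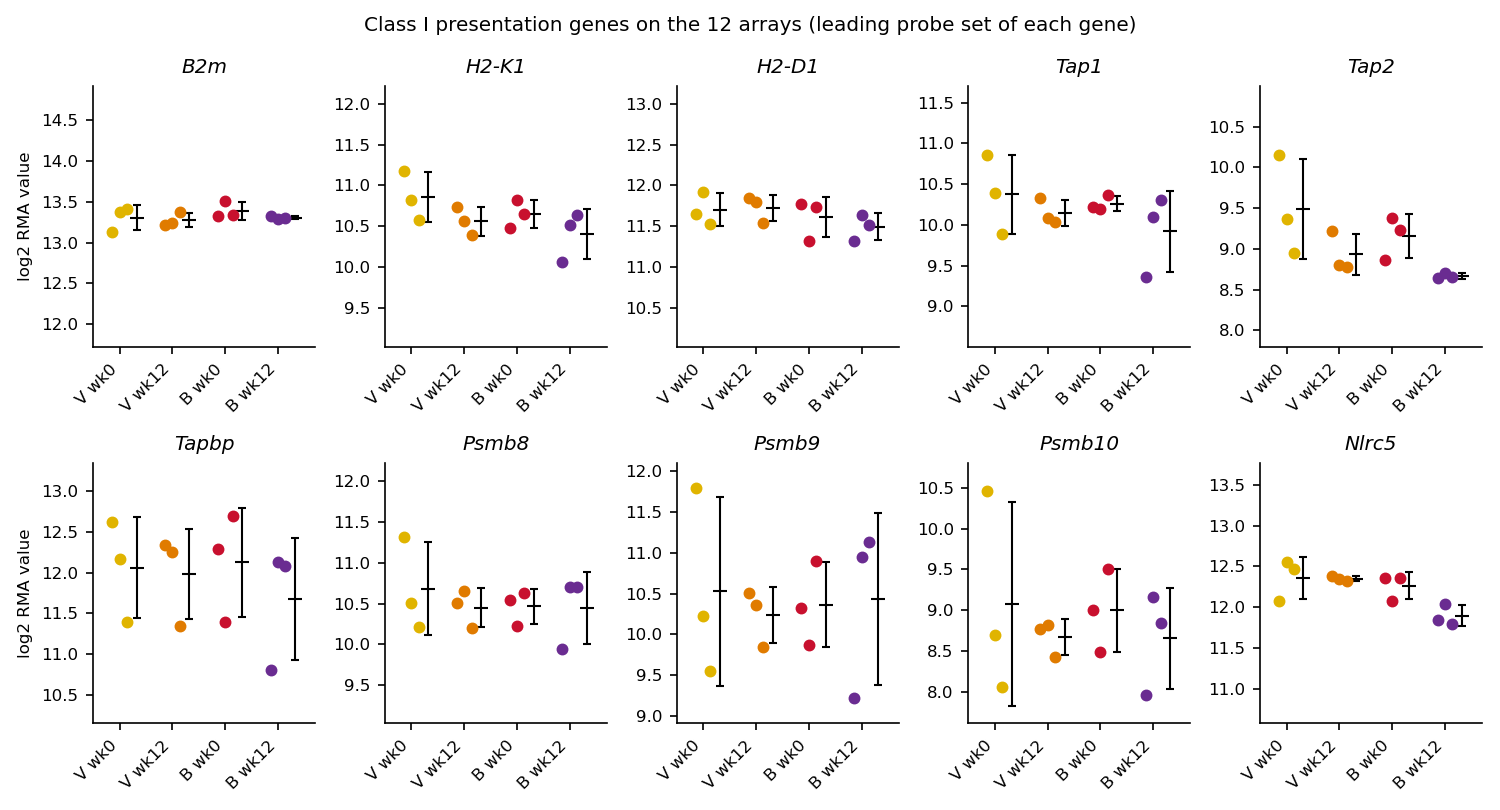
Log2 RMA value (y axis, the same span of 3.2 in each panel) of the leading probe set of each gene on each array, by group (x axis; V vehicle, B baricitinib, wk week); bars are the group mean with its SD over 3 arrays. The 3 arrays of baricitinib week 12 lie lowest for Tap2 and Nlrc5, while for Psmb9 they spread from 9.22 to 11.13.

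Psmb8, Psmb9 and Psmb10 encode the 3 catalytic subunits of the immunoproteasome. Psmb9 read 11.80, 10.23 and 9.55 at vehicle week 0 and 10.51, 10.36 and 9.85 at vehicle week 12. It read 10.32, 9.87 and 10.90 at baricitinib week 0 and 9.22, 10.95 and 11.13 at baricitinib week 12. The baricitinib week 12 group held the lowest of the 12 arrays and 2 of the 3 highest. The change was 0.07 (SE 0.60, adjusted p = 0.981), with an interval from 2.37-fold lower to 2.60-fold higher, so a change of 2-fold in either direction was not detectable for this gene.

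Psmb10 read 10.47, 8.70 and 8.06 at vehicle week 0 and 8.76, 8.82 and 8.42 at vehicle week 12. It read 9.004, 8.49 and 9.51 at baricitinib week 0 and 7.96, 9.16 and 8.85 at baricitinib week 12. Again the lowest array was replicate 1 of baricitinib week 12 and the highest replicate 1 of vehicle week 0. The change was -0.35 (SE 0.54, adjusted p = 0.870) with baricitinib and -0.41 (SE 0.54) with vehicle.

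Psmb8 read 11.32, 10.51 and 10.22 at vehicle week 0 and 10.50, 10.65 and 10.19 at vehicle week 12 on its leading probe set. It read 10.55, 10.22 and 10.63 at baricitinib week 0 and 9.94, 10.70 and 10.70 at baricitinib week 12. The groups overlapped, and the change was -0.02 (SE 0.32, adjusted p = 0.990). Its second, dim probe set (1444619_x_at) was lower in 3 of 3 mice (-0.39, adjusted p = 0.524) and lower than vehicle at week 12 (-0.49, unadjusted p = 0.0416, adjusted p = 0.429). That probe set and that of Nlrc5 (unadjusted p = 0.0473) were the 2 members below the unadjusted limit in this comparison.

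The spread of Psmb8 and Psmb9 went with the 3′ minus 5′ index, and that of Psmb10 did so less clearly. On the 3 arrays of low index Psmb9 read 10.95, 11.13 and 11.80, and on the other 9 it read from 9.22 to 10.90. Psmb8 read 10.70, 10.70 and 11.32 on those 3 and from 9.94 to 10.65 on the other 9. Psmb10 read 9.16, 8.85 and 10.47 on those 3 and from 7.96 to 9.51 on the other 9, so its ranges overlapped. With the index as a covariate, chosen after the data were seen, the change with baricitinib was -0.91 for Psmb9 (SE 0.20, adjusted p = 0.0326) and -1.20 for Psmb10 (SE 0.22, adjusted p = 0.0179). These 2 of 27 probe sets were then called, beside 3.91% of all probe sets. In the same fit neither passed against vehicle at week 12 (Psmb9 -0.73, adjusted p = 0.0906, and Psmb10 -0.83, adjusted p = 0.0891) or for the difference of the changes (adjusted p = 0.309 and 0.280). Within baricitinib mice that fit gave -1.12 for Tapbp (adjusted p = 0.0664), -0.72 for Tap1 (adjusted p = 0.0813), -0.47 for Psmb8 (adjusted p = 0.189), -0.46 for H2-K1 (adjusted p = 0.261), -0.31 for Nlrc5 (adjusted p = 0.453) and 0.01 for B2m. With the 3 low-index arrays left out, baricitinib week 12 is left with replicate 1 alone, the array on which Psmb9 was lowest (9.22) and one of the 2 of lowest correlation. Psmb9 was then at -1.15, with the spread taken from the other groups. Since 2 of the 3 arrays of low index are in 1 group, the index and the treatment cannot be fully told apart.

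**Figure D3:**
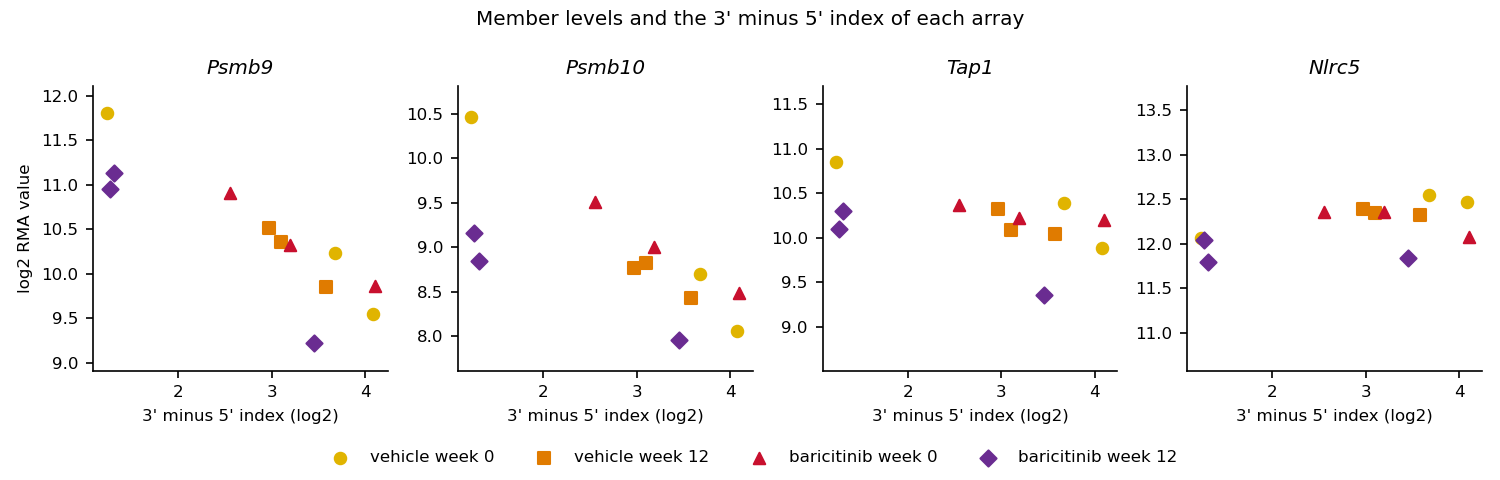
Log2 RMA value (y axis, span 3.2) of 4 genes against the 3′ minus 5′ index of the array (x axis, log2), 1 point per array, with shape and colour for the group. Psmb9 lies between 10.95 and 11.80 on the 3 arrays of low index and between 9.22 and 10.90 on the other 9, and on both sides baricitinib week 12 holds its lowest points, while Nlrc5 lies between 11.80 and 12.07 on those 3 arrays.

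Psmb5, Psmb6 and Psmb7 encode the standard catalytic subunits, whose places in the proteasome Psmb8, Psmb9 and Psmb10 take. None was called, and with baricitinib their values were 0.44, 0.78 and 0.35 (adjusted p = 0.872, 0.634 and 0.802). With the index as a covariate these became -0.71, -0.07 and -0.20. Psme1, a subunit of the interferon-inducible proteasome activator, had 0.26 (adjusted p = 0.885). Psme2 had no probe set with its symbol alone and is not analysed here.

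Each immunoproteasome subunit was therefore also compared with its counterpart on the same array, which takes out only what raises or lowers both by the same amount. These differences of log2 values between 2 probe sets are no ratio of molecules, and only their change between groups is read. They were chosen after the values had been seen. Psmb9 minus Psmb6 was 0.38, 0.28 and 0.16 at vehicle week 0, 0.14, 0.23 and 0.30 at vehicle week 12, and 0.12, 0.13 and 0.49 at baricitinib week 0. At baricitinib week 12 it was -0.68, -0.36 and -0.36. All 3 arrays at baricitinib week 12 were below all other 9.

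The mean of Psmb9 minus Psmb6 was -0.46 ± 0.18 (SD, n = 3) at baricitinib week 12, a difference of -0.71 from week 0 and -0.69 from vehicle at week 12. Each gave an exact two-sided permutation p = 0.1, the smallest that 3 against 3 arrays allow, so that this design cannot reach the threshold (0.4 after adjustment over the 12 comparisons of pairs). The permutation took all arrays as independent, although both weeks come from the same mice, and no test by mouse was run for these differences. Leaving out each array in turn kept the Psmb9 minus Psmb6 difference from week 0 between -0.77 and -0.59. Without the covariate, Psmb9 itself changed by 0.07 between the weeks of baricitinib and Psmb6 by 0.78. In the group means, that difference thus went with a higher reading of Psmb6 and not with a lower one of Psmb9. The mice were not alike in this. In the mouse of replicate 1 Psmb9 changed by -1.11, and Psmb6 read 10.21 at week 0 and 9.89 at week 12. In those of replicates 2 and 3 Psmb9 changed by 1.08 and 0.22. There Psmb6 read 9.73 and 10.42 at week 0, and 11.31 and 11.49 at week 12. With the index as a covariate the changes were -0.91 for Psmb9 and -0.07 for Psmb6. Psmb10 minus Psmb7 was -2.03 ± 0.22 (SD, n = 3) at baricitinib week 12, which was -0.69 against week 0 (exact permutation p = 0.1) and -0.34 against vehicle at week 12 (exact permutation p = 0.2). Psmb8 minus Psmb5 was 0.07 ± 0.55 (SD, n = 3), which was -0.46 and -0.67 in the same comparisons (exact permutation p = 0.3 and 0.2). Without the covariate, Psmb10 changed by -0.35 between the weeks of baricitinib and Psmb7 by 0.35. Psmb8 changed by -0.02 and Psmb5 by 0.44. All 3 pairs had values below 0 in both comparisons, with Psmb9 and Psmb6 alone separating baricitinib week 12 from both groups. Psmb8 minus Psmb5 still went with the index, with its lowest values on the arrays of low index. These were -0.16 and -0.32 on replicates 2 and 3 of baricitinib week 12 and -0.34 on replicate 1 of vehicle week 0. On all other arrays it lay from -0.06 to 1.17, with 0.70 on replicate 1 of baricitinib week 12.

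**Figure D4:**
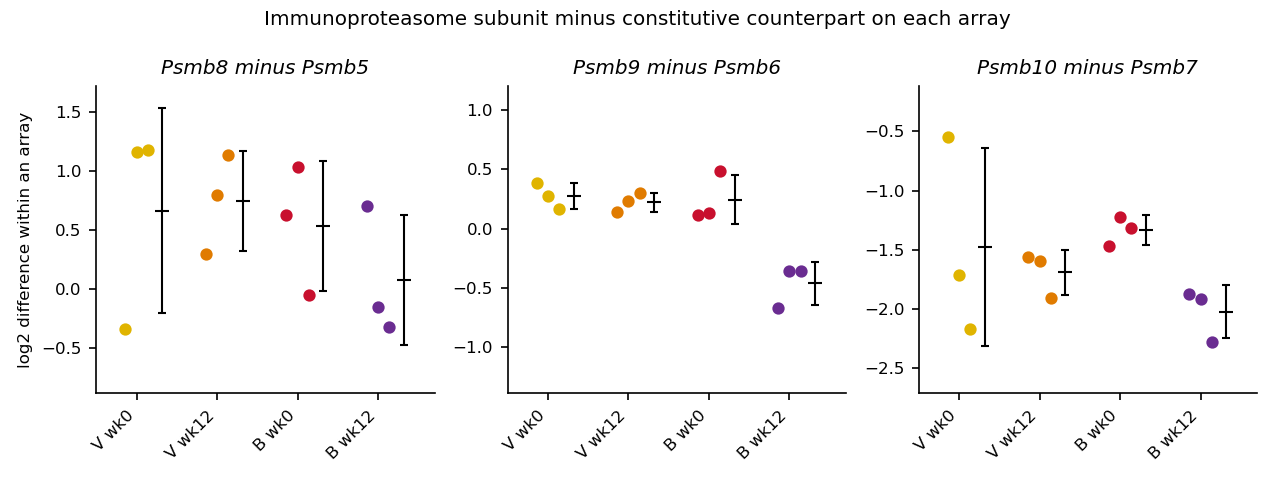
Difference in log2 RMA value within an array between an immunoproteasome subunit and its standard counterpart (y axis, span 2.6), by group (x axis; V vehicle, B baricitinib, wk week), with the group mean and SD over 3 arrays. Psmb9 minus Psmb6 lies between -0.68 and -0.36 on the arrays of baricitinib week 12 and between 0.12 and 0.49 on the other 9.

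Tap1 and Psmb9 are neighbours read in opposite directions on chromosome 17. In GRCm38.p6 Psmb9 lies at chr17:34182030-34187330 and Tap1 at chr17:34187556-34197225, with 225 bases between them, and Psmb8 and Tap2 follow at chr17:34198195-34201454 and chr17:34204479-34216321. In all, 7 of the 10 genes lie on chromosome 17. The stretch between Psmb9 and Tap1 is shown because it holds the start sites of both genes and because their levels went together over the arrays (Pearson r 0.836). That was not particular to these neighbours, since r was 0.920 for Psmb9 with Psmb10 on chromosome 8 and 0.912 for Tap1 with H2-K1. The sequence is the window of Tap1, chr17:34187306-34187605, on the plus strand, with CCAAT and TGACG in capitals, 222 and 86 bases before the Tap1 start.
Tap1 and Psmb9: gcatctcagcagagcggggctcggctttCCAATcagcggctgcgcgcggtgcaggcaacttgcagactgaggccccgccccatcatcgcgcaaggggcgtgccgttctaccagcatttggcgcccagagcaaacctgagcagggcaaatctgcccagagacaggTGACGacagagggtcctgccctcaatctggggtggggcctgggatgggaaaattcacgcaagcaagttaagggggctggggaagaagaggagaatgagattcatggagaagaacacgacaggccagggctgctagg

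Neither GAAANNGAA nor TTCNNNGAA, the letters of a gamma-activated sequence, was found in that window. Of the 8 genes with a window, TTCNNNGAA was found in Psmb8 only, and in 8.30% of all windows. The Psmb8 match lies at chr17:34198098-34198106, 97 bases before the start, and is shown in capitals within its surroundings.
Psmb8: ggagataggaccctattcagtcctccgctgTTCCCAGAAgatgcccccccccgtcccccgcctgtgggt

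Over the 12 arrays the members differed in how they varied. Tap1, Tap2, Psmb8, Psmb9, Psmb10 and H2-K1 went together, with r between 0.483 and 0.955 for their leading probe sets, the highest for Psmb8 and Psmb9. Tapbp had an r of 0.820 to 0.848 with Tap1, Psmb8, Psmb9 and Psmb10, and of 0.774 with H2-D1. Nlrc5 had an r of -0.18 to 0.21 with the 6 genes above and of 0.690 with H2-D1. B2m had an r below 0 with each of the 6, from -0.72 with Psmb8 to -0.27 with Tap2 and H2-K1. These values describe 12 arrays from 6 mice, which share mice, normalization and the index, and were not tested. The 5 other genes whose levels were most like the mean of the 10 members were Prep (r 0.968), Rnf149 (0.965), Herc6 (0.964), Arf4 (0.962) and Eml4 (0.961). Their r with the index over the same 12 arrays ran from -0.66 to -0.46.

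The other genes of the pathway were taken as lists of 74, of which 56 had a probe set with 1 symbol. Irf1, a transcription factor induced by interferon-gamma and known to drive class I and immunoproteasome genes, was the only one called. It read 10.53, 9.97 and 9.26 at vehicle week 0, 9.77, 9.53 and 9.28 at vehicle week 12, and 10.17, 9.65 and 10.19 at baricitinib week 0. At baricitinib week 12 it read 8.63, 8.62 and 8.34, below all other arrays. Irf1 fell by 1.47 on the log2 scale between week 0 and week 12 of baricitinib (SE 0.31, adjusted p = 0.0456), which is 2.78-fold, in 3 of 3 mice. With each mouse as a block the adjusted p was 0.0815, and over the arrays left out in turn it ran from 0.0235 to 0.183.

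Against vehicle at week 12, Irf1 was at -0.997 (SE 0.31, adjusted p = 0.221), and 0 of 56 pathway genes were called. The difference of the Irf1 changes was -1.08 (adjusted p = 0.723). The 1 of 56 called within baricitinib mice stands beside 2.05% of all genes with 1 probe set each, and the 0 of 56 at week 12 beside 0.951%. The median of the 56 was -0.0045 within baricitinib mice, where the median of all such genes was -0.02. By list, none of the 3 standard catalytic subunits, 11 other 20S subunits, 3 proteasome activators, 5 assembly factors, 6 peptide-trimming enzymes, 4 loading chaperones or 12 other class I heavy chains was called, and 1 of 12 regulators was. The median was lowest for the trimming enzymes (-0.51) and highest for the standard catalytic subunits (0.44).

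**Figure D5:**
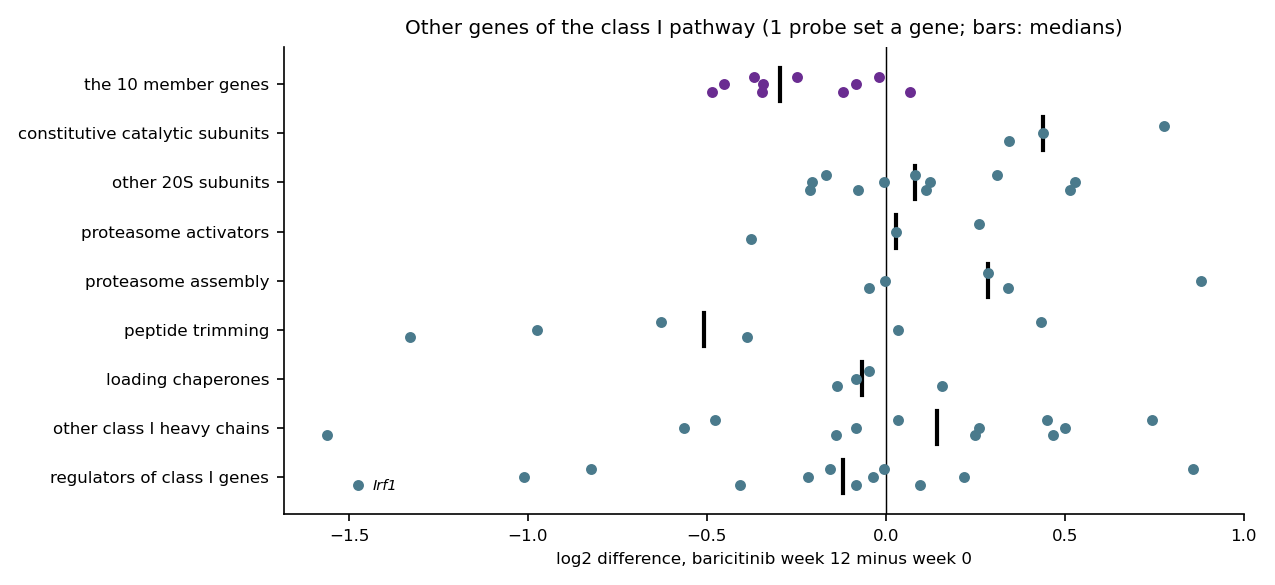
Log2 difference between baricitinib week 12 and week 0 (x axis) for the 10 member genes and for the other genes of the pathway by list (y axis), 1 point per gene, with the median of each list as a bar. The 10 member genes lie between -0.49 and 0.07, and Irf1, the only gene called, lies at -1.47.

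The biopsies carried the markers of skin, with the mean of 6 keratinocyte genes between 12.24 and 12.77 on every array. The 5 leukocyte genes averaged 10.04 to 10.25 at baricitinib week 12 and 10.41 to 11.01 in the other 3 groups, with 0 of 5 called. The 7 T cell genes measured averaged 5.97 to 6.95 at baricitinib week 12 and 6.67 to 7.65 at its week 0, with 1 of 7 called, and Cd4 was below the array median on all arrays. The median of the 7 changes was -0.08, so the genes of this list did not move alike. At vehicle week 0 they averaged 7.42 to 7.91, and at vehicle week 12 6.89 to 7.58. The 2 NK cell genes measured averaged 4.14 to 4.74 at baricitinib week 12 and 5.79 to 6.14 at its week 0, with 0 of 2 called. Ncr1 was below the array median on all arrays. With vehicle these genes averaged 5.78 to 6.37 at week 0 and 5.47 to 5.61 at week 12. The 5 hair follicle keratins averaged 4.65 to 6.27 at baricitinib week 12 and 10.37 to 11.78 at its week 0, and 4 of 5 were called lower. With vehicle they averaged 7.06 to 11.66 at week 0 and 9.31 to 9.72 at week 12. The 2 adipocyte genes averaged 9.40 to 10.02 at baricitinib week 12 and 6.02 to 8.46 at its week 0, with 0 of 2 called. With vehicle they averaged 6.07 to 7.03 at week 0 and 6.74 to 8.25 at week 12. The part of these shifts in the values of the 10 genes was not tested.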

How the data were processed

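Per the labels, RNA of skin biopsies was amplified and labelled with biotin. The authors ran quality control and RMA on the arrays of this experiment alone and deposited log2 values; no version is given in the sources used here. Their methods state that a baricitinib sample of each time, and a control sample at baseline with no experiment named, failed quality control; the labels mark none, and all 12 arrays were used. The number of arrays limits precision.

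The 45037 probe sets that are not controls went into limma (version 3.58.1, R 4.3.3) with 4 group means, moderated variances (prior degrees of freedom 3.54, residual 8) and Benjamini-Hochberg adjustment over all of them. Gene names came from the platform annotation. Promoters came from RefSeq (GRCm38.p6). Figures were drawn with matplotlib 3.10.9. The code was tested on simulated data.

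Named were all members, the standard catalytic subunits and Psme1, other pathway genes that were called, and the 5 genes most like the member mean. The members and lists were chosen with earlier results of these data known. Animal numbers in the labels tie the 2 arrays of a mouse: deviations from the group means correlated at -0.36, -0.51 and 0.47 in baricitinib mice and 0.44, -0.13 and 0.49 in vehicle mice. Alternatives are listed in the closing section.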

Additional observations from a re-analysis of the deposited data

Results flagged for a closer look

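H2-D1 probe set 1451934_at changed in opposite directions in the treatment groups. It changed by -0.06, -1.03 and -0.05 in the 3 baricitinib mice and by 0.76, 0.14 and 0.60 in the 3 vehicle mice. The means were -0.38 and 0.50, and the difference of the changes was -0.88 (SE 0.34). Its adjusted p in limma was 0.678, so it did not pass the test, and the probe set is dim (4.57 at baricitinib week 12, below the median level of 5.24). The other 8 H2-D1 probe sets did not separate the mice in this way.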

How the results depend on the processing

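The count of 0 called member probe sets in each of the 5 comparisons was also 0 above the median level, with a prior variance by level, with the mouse as a random replicate block or, for the changes within mice and their difference alone, a fixed one, within the 2 groups compared (not run for the difference of the changes), after cyclic loess or median centring, with 1 probe set per gene, without any single array (0 to 0), and with the 2 arrays of lowest correlation or the 3 of low index left out together. It was above 0 with array weights, whose estimate did not converge and with which 11277 probe sets were called between the weeks of baricitinib: 1 member (H2-D1) was called there, 2 (H2-D1 and Tap1) with vehicle, 2 (H2-D1 and Nlrc5) at week 12, 1 (Tapbp) at week 0 and 1 (H2-D1) for the difference of the changes. With the index as a covariate it was 2 between the weeks of baricitinib. The mouse as a fixed replicate block called 158 probe sets in all there, instead of 557, and 0 of the members.

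The count of pathway genes called between the weeks of baricitinib, 1, was 3 above the median level, 0 with the fixed replicate block, 0 with only the 2 groups, 2 with cyclic loess, 2 with median centring, 13 with array weights, 3 with 1 probe set per gene, 4 with the index as a covariate, 0 without the 3 arrays of low index, and 0 to 2 with each array left out. Beside Irf1 these counts of 2 and 3 held Irf9 and Erap1, named after their values were seen. At week 12 the count, 0, was 1 (Blmh) with a prior variance by level, 17 with array weights, 2 (Irf1 and Irf9) with the covariate, and 1 (Erap1) without the 2 arrays of lowest correlation.

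Between the weeks of baricitinib these values changed sign. With the covariate B2m was at 0.0131, Psmb9 at -0.91, Psmb5 at -0.71, Psmb6 at -0.068, Psmb7 at -0.20 and Psme1 at -0.44. Without the 3 arrays of low index, which leaves baricitinib week 12 with replicate 1 alone, assumed to vary like the other groups, Psmb9 was at -1.15, Psmb5 at -0.69, Psmb6 at -0.23, Psmb7 at -0.50 and Psme1 at -0.54. Without the 2 arrays of lowest correlation, H2-K1 was at 0.0076 and Psmb8 at 0.11, and with array weights Psmb8 was at 0.12. With each array left out, Psmb8 ran from -0.15 to 0.24, Psmb9 from -0.28 to 0.68 and Psmb10 from -0.60 to 0.0013.

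Between baricitinib and vehicle at week 12, B2m was at -0.026 with median centring. Without the 2 arrays of lowest correlation, H2-K1 was at 0.011, Tap1 at 0.052, Tapbp at 0.12, Psmb8 at 0.25 and Psmb10 at 0.33. With cyclic loess Psmb8 was at 0.067 and Psmb10 at 0.058, and with array weights Psmb8 was at 0.13 and Psmb10 at 0.33. With the covariate Psmb9 was at -0.73, Psmb5 at -0.42, Psmb7 at -0.20 and Psme1 at -0.31. Without the 3 arrays of low index, again with that 1 array at baricitinib week 12, Psmb9 was at -1.02, Psmb5 at -0.47, Psmb6 at -0.12, Psmb7 at -0.53 and Psme1 at -0.44. With each array left out, B2m ran from -0.00095 to 0.077, H2-K1 from -0.28 to 0.011, Tap1 from -0.42 to 0.052, Tapbp from -0.62 to 0.12, Psmb8 from -0.13 to 0.25, Psmb9 from -0.15 to 0.80 and Psmb10 from -0.27 to 0.33. The cause of these changes of sign was not tested. None of the sign changes other than that of Psmb9 with the covariate within baricitinib mice came with an adjusted p under 0.05. The covariate and both ways of leaving out arrays together were chosen after the data were seen.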
